A study of Mus musculus with 2 samples.

Results

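Classical monocytes were picked out of single-cell RNA sequencing of ventricular non-myocytes from 2 wild-type C57BL/6 mice aged 10 to 12 weeks. Each mouse gave 1 library, neither was treated, and both belong to a single group, so the cells are compared with other cell classes of the same hearts. Per the labels' protocols, the hearts were perfused, the atria were taken off, myocytes were spun out, red cells were lysed and live cells were sorted with dead-cell dyes before droplet capture. A classical monocyte was defined from measured counts as a barcode with at least 500 UMIs (tags that each mark 1 captured RNA molecule) and at most 10% mitochondrial UMIs that met 8 conditions. It had at least 1 UMI of Plac8, at least 3 of Ly6c2, Chil3 and Vcan summed, and at least 5 of Lyz2. It also had at most 5 UMIs of the complement genes C1qa, C1qb and C1qc summed, fewer than 50 of S100a8 and S100a9 summed, at most 3 of Dcn, at most 1 of Pecam1 and Cdh5 summed, and none of Cd209a. By this rule 54 of 12951 kept barcodes were classical monocytes, 50 of 7015 in mouse 1 and 4 of 5936 in mouse 2.

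Classical monocytes are made in the bone marrow, leave it in response to ligands of the chemokine receptor Ccr2, circulate in blood and enter tissues, where they can turn into macrophages or dendritic cells. In mice they carry high surface Ly6C, encoded by Ly6c2, whereas non-classical monocytes carry little of it and patrol the vessel wall. The resting heart holds a large pool of resident macrophages, many of which maintain themselves locally, and few monocytes. Because monocytes in residual blood and monocytes already in the tissue express the same rule genes, they cannot be told apart here.

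The rule leans on Ly6c2, whose neighbour Ly6c1 is a near copy that marks endothelial cells, so the sequences of the pair are shown first. Ly6c2 lies at chr15:75108158-75111970 and Ly6c1 at chr15:75044018-75048830, both on the minus strand of GRCm38 (GENCODE M21), the assembly also called mm10. The first 100 coding bases of Ly6c2-201 and Ly6c1-201 are given with every base that differs between them in capitals.
Ly6c2: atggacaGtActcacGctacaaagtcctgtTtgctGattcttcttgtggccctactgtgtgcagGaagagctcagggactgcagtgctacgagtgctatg
Ly6c1: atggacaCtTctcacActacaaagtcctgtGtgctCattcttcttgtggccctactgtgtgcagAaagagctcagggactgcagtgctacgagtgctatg
The pair differed at 6 of these 100 bases and at 9 of 396 over the whole coding sequence, an identity of 97.7%. Over the last 300 bases of each transcript, where a 3′ library is read, 287 of 307 alignment columns, gaps included, were identical. Of the 251 windows of 50 bases in that stretch of Ly6c2, 176 (70.1%) occurred in no Ly6c1 transcript, so some reads could belong to either gene. The counts of the pair nevertheless differed within cell classes. Classical monocytes had 347 Ly6c2 and 12 Ly6c1 UMIs, but Ly6c2 is a rule gene, so its count is high in part by construction. The choice of endothelial cells used neither gene. Endothelial cells (at least 3 UMIs of Pecam1 and Cdh5) had 4683 and 3374 CPM of Ly6c1 in mice 1 and 2, and 28.7 and 19.5 CPM of Ly6c2. CPM here means the UMIs of a gene per 1000000 UMIs of the summed cells.

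The 2 genes differ more upstream. The RefSeq promoter windows (250 bases before to 50 after the first listed start site, GRCm38.p6) are printed with GAGGAAGT, a site of the type bound by the myeloid factor PU.1, in capitals. Both strands were searched. The window of Ly6c2 is chr15:75111922-75112221 and that of Ly6c1 is chr15:75048788-75049087, both on the minus strand.
Ly6c2: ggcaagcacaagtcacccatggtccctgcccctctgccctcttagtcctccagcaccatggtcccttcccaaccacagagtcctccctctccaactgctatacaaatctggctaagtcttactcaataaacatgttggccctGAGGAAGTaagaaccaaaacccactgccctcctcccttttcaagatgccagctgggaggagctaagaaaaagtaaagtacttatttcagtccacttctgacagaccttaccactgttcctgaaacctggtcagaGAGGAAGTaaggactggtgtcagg
Ly6c1: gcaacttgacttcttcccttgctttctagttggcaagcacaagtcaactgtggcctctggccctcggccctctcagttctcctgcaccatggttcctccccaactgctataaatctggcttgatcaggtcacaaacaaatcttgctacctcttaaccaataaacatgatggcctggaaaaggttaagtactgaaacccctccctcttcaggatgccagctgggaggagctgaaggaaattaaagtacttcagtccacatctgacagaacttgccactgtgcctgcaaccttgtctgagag
The Ly6c2 window held the motif 2 times and the Ly6c1 window did not hold it. Of 334 alignment columns 208 (62.3%) were identical, with gaps and unmatched window ends counted as differences. The motif occurs in 3.20% of 32851 promoter windows of this length. It was in none of the windows of Plac8, Chil3, Vcan, Ccr2 and Ms4a4c, each searched at its first listed start. TTGCNNAA, a site of the type bound by C/EBP factors, occurs in 10.8% of windows and in none of these 7, both strands searched. Of the other promoters searched (Slpi, F13a1 and Lyz2), that of Slpi held it 1 time and none held GAGGAAGT. Spi1, which encodes PU.1, had 673 and 619 CPM in the classical monocytes of mice 1 and 2, against 436 and 424 CPM in macrophages with many C1q UMIs, and was not called between them (log2 fold change 0.26, SE 0.34, adjusted p = 0.754 by edgeR).

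Classical monocytes made up 0.713% of kept cells in mouse 1 (exact Clopper-Pearson 95% interval 0.529 to 0.939%) and 0.0674% in mouse 2 (0.0184 to 0.172%). The intervals do not overlap, but they cover counting error only, and with 1 library per mouse the difference was not tested. Neutrophils (at least 50 UMIs of S100a8 and S100a9) showed the same imbalance, with 73 cells in mouse 1 and 2 in mouse 2. Cd209a dendritic cells (at least 2 UMIs of Cd209a) did not, with 9 and 20 cells, and C1q macrophages (at least 10 C1q UMIs) numbered 3107 and 2474. Cells with Plac8 and at least 2 UMIs of the non-classical markers Ace, Treml4, Spn, Eno3, Cd300e and Pglyrp1 but no Ly6c2, Chil3 or Vcan numbered 8 in mouse 1 and 5 in mouse 2, or 0.114% (0.0492 to 0.225%) and 0.0842% (0.0274 to 0.196%). Pglyrp1 is also a neutrophil gene.

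**Figure D1:**
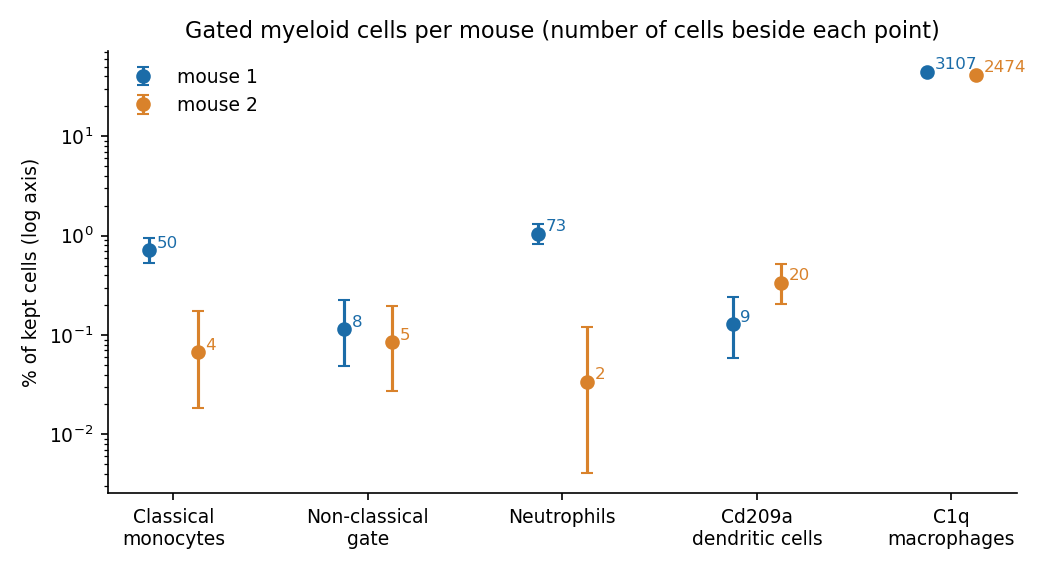
Share of kept cells in each gated myeloid class, on a log axis in percent, per mouse, with exact 95% intervals for counting error and the number of cells beside each point. Classical monocytes (50 and 4 cells) and neutrophils (73 and 2 cells) are mostly from mouse 1, while the other classes have similar shares in both mice or more cells in mouse 2.

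The markers of other cell types were counted in the 54 cells as a check of the label. The cells had a median of 2901 UMIs (1430 to 5127) and 1243 genes, and Scrublet called none of them a doublet, against 394 and 244 calls in the whole libraries. Of the barcodes, 65 occurred in both tables, none of them a member's. All 6 erythroid markers (haemoglobins among them), all 6 mast cell and basophil markers and all 4 T cell markers in the tables were at 0. The 6 dendritic cell markers summed to 1 UMI, the 6 neutrophil markers (Retnlg and Csf3r among them) to 9 and the 5 B cell markers to 2, while the NK cell markers summed to 1 UMI and the mural markers to 5. The 6 non-classical monocyte markers summed to 17 UMIs in 10 members, all of mouse 1, with Cd300e at 0, and 6 members had at least 2 such UMIs. Pf4, which macrophages also express, was the sole platelet marker detected (16 UMIs), and the 6 macrophage markers summed to 197 UMIs. That macrophage sum was 1028 and 3610 CPM in the monocytes of mice 1 and 2, against 2302 and 2352 CPM in C1q macrophages. In mouse 2 it therefore did not set the monocytes below the macrophages. Summed fibroblast markers reached 88 UMIs, endothelial markers 30 and cardiomyocyte markers 36 (12 in 1 cell), over 167312 UMIs, and their part in the results was not tested. The fibroblast list holds Dcn and the endothelial list Pecam1 and Cdh5, which the rule limits, so these sums are low in part by construction. The 2 endothelial genes Pecam1 and Cdh5 were at 0 in every member although the rule allowed 1 UMI. Siglech, a plasmacytoid dendritic cell gene, was at 0 in all 54.

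The rule genes are described here without a test, since they chose the cells. Plac8, a small cysteine-rich protein of blood myeloid cells, had 2 to 41 UMIs per cell with a median of 14.5. Ly6c2 had 0 to 49 (median 5), Chil3, a chitinase-like secreted protein, 0 to 17 (median 4.5), and Vcan, the matrix proteoglycan versican, 0 to 4 (median 1). Lyz2, the myeloid lysozyme, had 10 to 179 with a median of 95.5, far above its limit of 5. Ly6c2 was seen in 53 cells, Chil3 in 40, Vcan in 34, and all 3 in 27. The 3 genes therefore did not mark the same cells every time at this depth. The 1 cell without Ly6c2 came in through 14 UMIs of Chil3. Summed per mouse, Plac8 was at 5266 and 6808 CPM in the monocytes of mice 1 and 2, against 24.1 and 2.6 CPM in C1q macrophages, and Ly6c2 at 1726 and 7737 CPM, against 6.5 and 2.2 CPM. Vcan, at 355 and 0 CPM in the monocytes, was also present in fibroblasts, at 143.5 and 83.5 CPM.

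**Figure D2:**
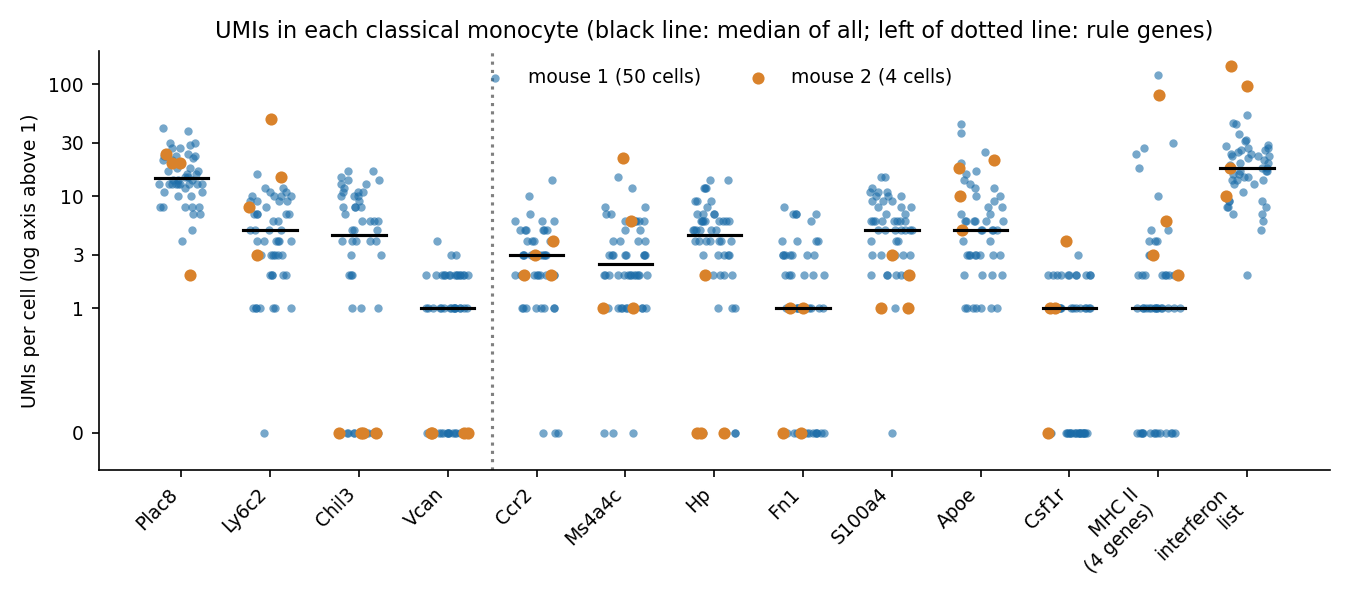
UMIs per cell of rule genes (left of the dotted line), other genes and summed lists in each of the 54 classical monocytes, on an axis that is logarithmic above 1. Points are cells of mouse 1 and mouse 2, and black lines are medians over all 54. All 4 cells of mouse 2 are at 0 for Chil3 and Vcan, and 2 of them have the highest interferon sums (147 and 96 UMIs).

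The 4 members of mouse 2 differed from most of those of mouse 1 in rule genes and among themselves. They had no UMI of Chil3 or Vcan, against 300 and 56 UMIs in the 50 cells of mouse 1, and they passed through Ly6c2 alone, with 8, 49, 3 and 15 UMIs. All 4 had Ccr2 (2, 2, 4 and 3 UMIs). The third of them had 179 UMIs of Lyz2, the highest of all members, 6 of F13a1 and 2 of Hp, and 2 of Plac8, the lowest of all members. The second had the highest Ly6c2 and Ms4a4c of all members (49 and 22 UMIs) together with 22 UMIs of Irf7, 13 of Isg15 and 55 of Ifi27l2a, genes that type I interferon induces. The fourth had 10 UMIs of Isg15 and 53 of Ifi27l2a, 81 UMIs over the MHC class II genes H2-Aa, H2-Ab1, H2-Eb1 and Cd74, and 10 of Lyz2, the lowest of all members. The first had 31 UMIs of Lyz1, the gut lysozyme that sits beside Lyz2. Over the whole interferon list the 4 cells had 18, 147, 10 and 96 UMIs, and the median over all 54 members was 18. Values of mouse 2 below rest on these 4 cells and 9694 UMIs, against 157618 UMIs in mouse 1.

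The cells at the edge of the rule show what each condition decides. Of the members, 5 had exactly 3 UMIs over Ly6c2, Chil3 and Vcan, and none had exactly 1 of Plac8. Just outside, 27 cells failed only that sum. Members had 1405 CPM of Cd74, the MHC class II chaperone, against 18847 CPM in these 27 cells. Another 10 cells, all of mouse 1, failed only the C1q limit. They had 1066 CPM of Hp and 1025 CPM of Ccr2, together with 9681 CPM of Cd74 and 7632 CPM of Apoe, and a median of 4744 UMIs; Scrublet called 1 of them a doublet. These pooled values hide a split: the 3 cells just past the limit, with C1q sums of 6 to 10, had 346 CPM of Cd74 and 7523 CPM of Apoe, whereas the 5 with sums of 21 or more had 13629 CPM of Cd74. The Dcn and S100a8 plus S100a9 limits each kept out 3 cells, the Lyz2 limit 4 and the Plac8 limit 2. No cell failed only the Pecam1 and Cdh5 limit or only the Cd209a limit. Within the members, cells with C1q sums of 0, of 1 or 2 and of 3 to 5 numbered 19, 26 and 9, and had 912, 1036 and 1229 CPM of Ccr2.

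Genes outside the rule were compared between classical monocytes and C1q macrophages, the largest myeloid class, to see how far the cells differ in the same hearts. Ccr2 and most monocyte identity genes were higher in the monocytes, and the markers of resident macrophages, chemokines and the main MHC class II genes were lower. Within each mouse the UMIs of a class were added up, and the sums were tested with edgeR's quasi-likelihood test with mouse as a block and Benjamini-Hochberg adjustment over all genes. A gene was called at an adjusted p under 0.05 and a log2 fold change of at least 1 in size. Of 2171 genes that passed the low-count filter and no gate uses, 274 (12.6%) were called, 83 (3.82%) higher in classical monocytes and 191 (8.8%) lower. The classes were cut on genes that vary together with many others in myeloid cells, so such genes can differ by construction. Here and below, a tested gene with no UMI in 1 compared class passed the filter through other classes. Its direction was fixed in advance. Genes scarce in the macrophages and absent from the dendritic cells, such as Hp and Slpi, passed the filter through the monocytes. They could only come out higher, and the list counts below include them.

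Receptors and adhesion genes of circulating leukocytes were among the genes called higher. Ccr2 (chr9:124101950-124113557, plus strand), the receptor that draws monocytes out of the marrow, had 1028 and 1135 CPM in the monocytes of mice 1 and 2, against 74.9 and 80.0 CPM in the macrophages. It was higher by 3.43 on the log2 scale (SE 0.34, adjusted p = 1.32e-06). The values of both mice lie close together and the classes do not overlap. Itgb7, an integrin subunit of homing leukocytes, had 222 and 103 CPM in the monocytes (the value of mouse 2 from 1 UMI), against 3.97 and 4.51 CPM in the macrophages. Of the 20 tested genes of adhesion and migration 7 were higher and 0 lower, with a median log2 fold change of 1.00 beside -0.10 over all genes. Without the monocytes of mouse 1 that median was -0.22.

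Among the 26 tested genes of the monocyte identity list, 15 were higher in the monocytes and 2 lower, with a median log2 fold change of 2.56. Hp, the haemoglobin-binding haptoglobin, had 1643 and 206 CPM in the monocytes, against 8.36 and 0.58 CPM in the macrophages. It differed by 7.44 on the log2 scale (SE 0.49, adjusted p = 3.06e-08). Hp passed the low-count filter through the monocytes alone, so this direction was fixed in advance. Ms4a4c, a tetraspan protein of monocytes, had 1091 and 3095 CPM, against 43.9 and 28.2 CPM (log2 fold change 5.13, SE 0.41, adjusted p = 1.46e-07). Fn1, which encodes fibronectin, had 660 and 206 CPM in the monocytes, against 9.51 and 5.82 CPM in the macrophages. The log2 fold changes of Fn1, Ifitm6, Msrb1, Gsr, Sirpb1c and Thbs1 lay between 3.65 and 5.62. Msrb1 and Gsr encode enzymes that repair oxidised methionine and recycle glutathione, and Thbs1 encodes the adhesive protein thrombospondin. The calcium-binding proteins S100a4 and S100a6 were higher by 2.65 (SE 0.44, adjusted p = 0.000344) and 2.46 (SE 0.41, adjusted p = 0.000335). Of the 12 tested S100 and granule genes 6 were higher and 0 lower, with Hp, S100a4 and S100a6 counted in both lists.

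The 2 identity genes that were lower were Cd14, the lipopolysaccharide co-receptor, and the chemokine Ccl9. F13a1, a coagulation factor subunit often used for monocytes, was not called against macrophages. It had 837 and 619 CPM in the monocytes, against 1274 and 1088 CPM in the macrophages (log2 fold change -1.001, SE 0.37, adjusted p = 0.0878). Napsa, an aspartic protease from the dendritic cell list, had 615 and 516 CPM in the monocytes, against 8.67 and 4.80 CPM in the macrophages (log2 fold change 6.01, SE 0.39, adjusted p = 2.81e-08). Slpi, a protease inhibitor of neutrophils and epithelia, had 590 and 206 CPM, against 3.97 and 2.04 CPM (log2 fold change 6.81, SE 0.58, adjusted p = 6.07e-07). Like Hp, Slpi passed the low-count filter through the monocytes alone, so its direction was fixed in advance.

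**Figure D3:**
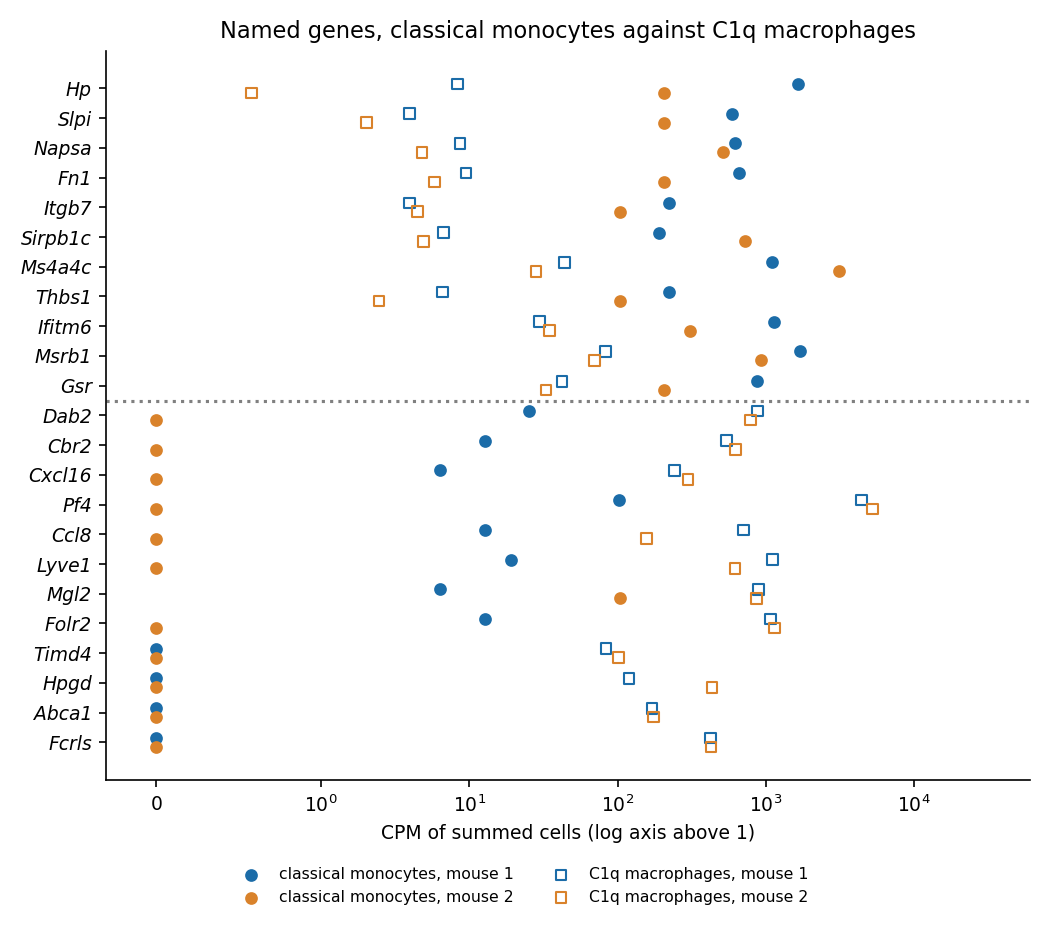
CPM of 11 of the 12 named genes with the highest (top) and the 12 with the lowest log2 fold change among listed genes called against C1q macrophages, on an axis that is logarithmic above 1. Filled circles are classical monocytes and open squares are C1q macrophages of each mouse. The 2 mice lie near each other for Napsa, while Hp is at 1643 CPM in the monocytes of mouse 1 and 206 CPM in those of mouse 2.

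Resident macrophage markers were low in the monocytes. Of 24 tested genes of that list 21 were lower in classical monocytes and none higher, with a median log2 fold change of -4.93, or -4.35 with the 3 genes at 0 UMIs set at their bound. Those 3 genes were Fcrls, Timd4 and Hpgd. Fcrls, an Fc receptor-like scavenger protein, had 421 and 426 CPM in the macrophages, so that it was at least 23.6-fold lower in the monocytes when the floor of 3 UMIs over both mice is used. Timd4, a receptor for dying cells, was at least 5.07-fold lower and Hpgd, which breaks down prostaglandins, at least 14.0-fold lower. Folr2, a folate receptor, had 2 UMIs in the monocytes and 1071 and 1142 CPM in the macrophages, which were 92.1-fold higher by pooled counts (95% interval for counting error 25.5 to 760). Lyve1, a hyaluronan receptor, had 3 UMIs in the monocytes, and the macrophages were 50.2-fold higher (17.2 to 244). Pf4, a chemokine of platelets and macrophages, fell by 5.95 on the log2 scale (SE 0.58, adjusted p = 1.25e-06), and Dab2, an endocytic adaptor, fell by 5.66 (SE 0.65, adjusted p = 8.02e-06).

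Genes seen in both monocytes and macrophages ranged from no call to clearly lower. Csf1r, the receptor for the growth factor on which monocytes and macrophages depend, had 254 and 619 CPM in the monocytes, against 739 and 877 CPM in the macrophages, a log2 fold change of -1.54 (SE 0.39, adjusted p = 0.0123). Cd68, a lysosomal protein, had 406 and 825 CPM, against 368 and 415 CPM, and was not called (log2 fold change 0.05, SE 0.34, adjusted p = 0.95). Fcgr1 was also not called, at 279 and 1960 CPM against 196 and 146 CPM. Apoe, the lipid carrier, fell by 3.44 on the log2 scale (SE 0.54, adjusted p = 0.000188), with 2424 and 5570 CPM in the monocytes, against 30121 and 27966 CPM in the macrophages. With cells thinned to the same number of UMIs, Apoe was seen in 88.9% of monocytes and 98.6% of macrophages. It was also seen in 79.7% of neutrophils, 86.0% of fibroblasts, 72.3% of endothelial cells and 58.6% of dendritic cells. How much of the monocyte level is background shared by these classes was not tested.

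Chemokines, scavenging genes and some transcription factors were lower in the monocytes. Of 12 tested chemokines 10 were lower in classical monocytes and none higher, among them Ccl2, Ccl7, Ccl8 and Ccl12, which include ligands of Ccr2 itself. Ccl12 had 38.1 and 0 CPM in the monocytes, against 1195 and 546 CPM in the macrophages. Cxcl16, a membrane-bound chemokine, had 1 UMI in the monocytes, and the macrophages were 44.4-fold higher by pooled counts (7.97 to 1755). Of 21 tested genes of scavenging, lipid and iron handling 12 were lower and 1 (Lgals3) higher. The lists share genes, so a call can be counted more than once. Mrc1, Cd163, Stab1, Timd4 and Apoe were also counted among the resident macrophage genes, as was Pf4 of the chemokines. Of 19 tested transcription factors 4 were lower, Klf4, Klf6 and Maf among them, and none higher. Maf, which drives macrophage identity, had a log2 fold change of -3.34 (SE 0.47, adjusted p = 6.05e-05). Of 13 tested immediate early and heat shock genes 4 were lower (Jun, Jund, Egr1 and Dusp1) and none higher.

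The remaining lists held few tested genes each, and their counts stand beside 12.6% called over all 2171 genes tested against macrophages. Most of these lists lay above that share, but the lists were chosen with earlier results known. Of 18 tested pattern recognition and Fc receptors 2 were higher (Clec4a3 and Pirb) and 4 lower (Cd14, Clec4n, Fcgr2b and Fcgr3). The mice disagreed on Fcgr2b, with 178 against 605 CPM in mouse 1 but 619 against 495 CPM in mouse 2. Of 7 chemoattractant receptors 2 were higher, Ccr2 and the leukotriene receptor Ltb4r1, and 2 lower, the complement receptors C5ar1 and C3ar1. Ltb4r1 had 23 UMIs in the monocytes of mouse 1 and 0 in those of mouse 2. Among 8 cytokine and inflammation genes Tnfaip2 was higher and Nfkbiz lower. Of 9 tested genes of the non-classical list Gngt2 was higher and 3 (Cd300ld, Cd36 and Fabp4) lower, while Cx3cr1 was not called. The mice disagreed on Cd300ld, with 19.0 against 139 CPM in mouse 1 but 206 against 171 CPM in mouse 2. The dendritic cell list had 8 tested genes, with Napsa and Cd24a higher and Clec10a, Mgl2 and Ckb lower. Cd24a had 6 UMIs in the monocytes of mouse 1 and 0 in those of mouse 2. Among 10 glycolysis genes Eno1 was higher, and among 5 cell cycle genes Hmgb2 was higher and Stmn1 and Tubb5 lower. The neutrophil list had 1 tested gene, Slpi.

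The number of calls changed when the monocytes or the macrophages of 1 mouse were left out. Cell number, animal and the genes tested changed together in these fits, so their parts were not tested. With the 4 monocytes of mouse 2 left out, 158 genes were higher and 303 lower of 3435 tested. With the 50 monocytes of mouse 1 left out, 31 were higher and 94 lower of 2118. Of the 34 listed genes called higher, 32 were also called without the monocytes of mouse 2, and 9 of the 31 that could be tested without those of mouse 1. For the 63 called lower the numbers were 63, and 32 of 62. All 62 kept a lower value there, while 28 of the 31 kept a higher one. With the macrophages of mouse 1 or of mouse 2 left out, 20 and 38 genes were higher and 28 and 64 lower.

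Among the interferon-stimulated genes the call rests on mouse 2. Of 13 tested 1 was called higher, Irf7, the factor that amplifies interferon induction. It had 120 and 2579 CPM in the monocytes of mice 1 and 2, against 83.6 and 54.8 CPM in the macrophages (log2 fold change 2.52, SE 0.74, adjusted p = 0.0298). Its 44 UMIs came from 18 cells, and 22 of them from 1 cell of mouse 2. Without the monocytes of mouse 2 the log2 fold change was 0.39 (SE 0.52, adjusted p = 0.727). Isg15 (108 and 2373 CPM, against 117 and 93.2 CPM) and Bst2 (241 and 2269 CPM, against 504 and 382 CPM) were split in the same way and not called.

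MHC class II genes were lower in the monocytes but unevenly so. Of 11 tested genes of antigen presentation 6 were lower (H2-Aa, H2-Ab1, H2-Eb1, Cd74, H2-DMa and H2-DMb1) and 1 higher (Ifi30, a lysosomal thiol reductase). Cd74 had 1123 and 5983 CPM in the monocytes, against 16161 and 22890 CPM in the macrophages (log2 fold change -3.27, SE 0.65, adjusted p = 0.00173). The median of the list was -3.27, or -1.47 with the 2 genes at 0 in the monocytes set at their bound. Per cell, the sum of H2-Aa, H2-Ab1, H2-Eb1 and Cd74 had a median of 1 UMI and a maximum of 122, with 38 cells at 0 to 2 and 7 cells at 10 or more. Those 7 had 889 CPM of Ccr2 and 722 CPM of Hp, against 1052 and 1661 CPM in the other 47. Thinned to 1000 UMIs per cell, 29.6% of the 54 monocytes had a Cd74 UMI, against 77.5% of 5500 macrophages and 17.3% of endothelial cells.

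**Figure D4:**
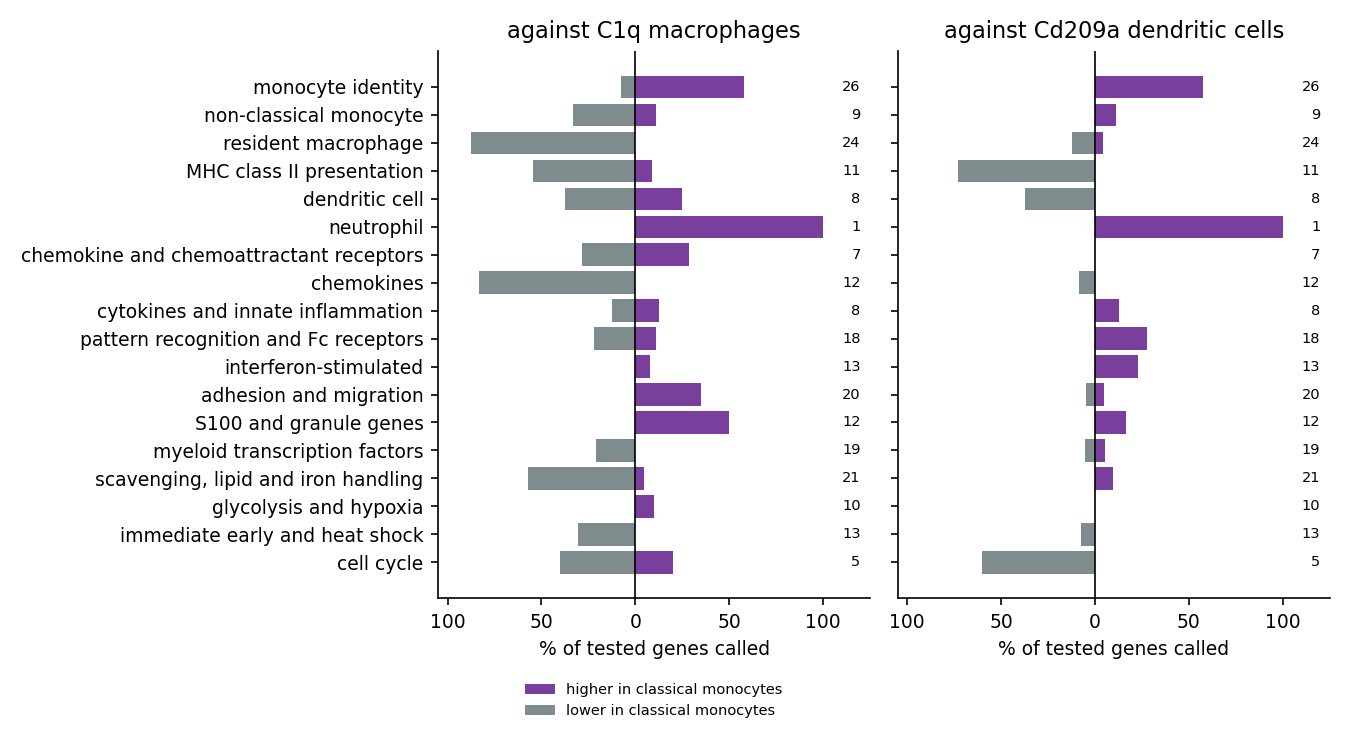
Percent of the tested genes of each list called higher (right) or lower (left) in classical monocytes against C1q macrophages and against Cd209a dendritic cells, with the number of genes tested at the right edge. The resident macrophage list stands out on the lower side against macrophages (21 of 24), and the MHC class II list against dendritic cells (8 of 11). The neutrophil list has 1 tested gene.

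Cd209a dendritic cells also carry Ccr2 and are often described as derived from monocytes. Against them, antigen presentation genes were lower in classical monocytes, and 15 of 26 monocyte identity genes were higher. Of 2171 genes 89 (4.1%) were called, 46 (2.12%) were higher and 43 (1.98%) lower. This comparison rests on 29 dendritic cells, 9 and 20 per mouse, and shares the monocyte sums with the comparison above. With the dendritic cells of mouse 1 or of mouse 2 left out, 2 and 8 genes were higher and 5 and 14 lower, and without the monocytes of mouse 1 or of mouse 2, 26 and 100 were higher and 46 and 57 lower.

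Of 11 tested antigen presentation genes 8 were lower in the monocytes and none higher, with a median log2 fold change of -4.38, or -3.64 with the 2 genes at 0 UMIs at their bound. H2-Eb1, H2-Ab1 and H2-Aa, chains of the class II molecules that show peptide to T cells, fell by 5.55, 5.22 and 5.05 on the log2 scale (SE 0.65, 0.64 and 0.62; adjusted p of 5.44e-05 to 5.82e-05). Cd74 had 1123 and 5983 CPM in the monocytes, against 48874 and 40066 CPM in the dendritic cells. H2-Oa and H2-DMb2, which tune peptide loading, had no UMI in the monocytes and were at least 11.5-fold and 12.4-fold lower. In the macrophages of mice 1 and 2, H2-Oa had 1.36 and 0.58 CPM and H2-DMb2 6.58 and 9.01 CPM. Both therefore passed the low-count filter through the dendritic cells and could only come out lower. Mgl2, a lectin of dendritic cells, had 2 UMIs in the monocytes, and the dendritic cells were 141-fold higher by pooled counts (38.4 to 1168). Ckb, a brain-type creatine kinase, had 1 UMI, against 93 UMIs (124-fold, 21.7 to 4944). Stmn1, a tubulin regulator of growing cells, fell by 4.27 on the log2 scale (SE 0.60, adjusted p = 0.000237), and Birc5, a gene of mitosis, had no UMI against 16.

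Of 26 tested identity genes 15 were higher and none lower against dendritic cells, with a median log2 fold change of 2.98, or 2.80 with the 4 genes at 0 UMIs at their bound, beside -0.06 over all genes. Hp, Mgst1 and Slpi had 261, 80 and 95 UMIs in the monocytes and none in the dendritic cells, and were at least 65.3-fold, 20.02-fold and 23.8-fold higher. F13a1 had 837 and 619 CPM in the monocytes, against 24.2 and 23.7 CPM in the dendritic cells, where it had 3 UMIs (34.5-fold by pooled counts, 11.6 to 170). Its call against dendritic cells (adjusted p = 0.000236) stands beside the lack of one against macrophages; both use the same monocytes. Cebpb, a transcription factor of the monocyte lineage, had 933 and 1444 CPM, against 48.3 and 35.6 CPM (log2 fold change 4.28, SE 0.64, adjusted p = 0.000377). Msrb1 was higher by 4.04 (SE 0.52, adjusted p = 8.47e-05). With cells thinned to the same number of UMIs, Cebpb was seen in 53.7% of monocytes, against 3.45% of dendritic cells. It was also seen in 53.1% of neutrophils and 36.1% of macrophages. Msrb1 was seen in 72.2% of monocytes and 95.3% of neutrophils, against 7.2% of macrophages and 3.45% of dendritic cells. Neither Cebpb nor Msrb1 is therefore particular to monocytes among the blood-derived cells. Fcgr1, the high-affinity IgG receptor, was higher by 4.18 (SE 0.86, adjusted p = 0.00681), with 279 and 1960 CPM, against 24.2 and 35.6 CPM.

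Of 18 tested pattern recognition and Fc receptors 5 were higher against dendritic cells (Clec4a1, Clec4a3, Fcgr1, Pirb and Lilrb4a) and none lower. Of 13 interferon-stimulated genes 3 were higher (Irf7, Ifi27l2a and Ifi204) and none lower. Of 8 tested dendritic cell genes 3 were lower (Clec10a, Mgl2 and Ckb), and of 5 cell cycle genes 3 (Birc5, Stmn1 and Tubb5). Of 24 resident macrophage genes 1 was higher (Fcgr1) and 3 lower. The adhesion list gave 1 gene higher and Cd9 lower of 20, the transcription factors Cebpb higher and Id2 lower of 19, and the S100 and granule list Hp and Slpi higher of 12. The chemokines gave Cxcl16 lower of 12, the immediate early genes Jund lower of 13 and the non-classical list Gngt2 higher of 9. Of 21 scavenging, lipid and iron genes 2 were higher, and of 8 cytokine and inflammation genes 1, all 3 described next. None of 7 chemoattractant receptors and none of 10 glycolysis genes was called. Tnfaip2, Msr1 (a scavenger receptor) and Slc11a1 (a phagosomal metal transporter) had no UMI in the dendritic cells and were at least 7.01-fold, 5.26-fold and 4.00-fold higher in the monocytes. Ccr2 was not called, with 1028 and 1135 CPM in the monocytes, against 507 and 439 CPM in the dendritic cells (log2 fold change 0.99, SE 0.36, adjusted p = 0.16). Irf7 had 19 and 25 UMIs in the monocytes of mice 1 and 2, against 1 UMI in the dendritic cells (33.0-fold by pooled counts, 5.63 to 1334). Its adjusted p was 0.0219, and 0.0666 without the monocytes of mouse 2, with the same direction.

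**Figure D5:**
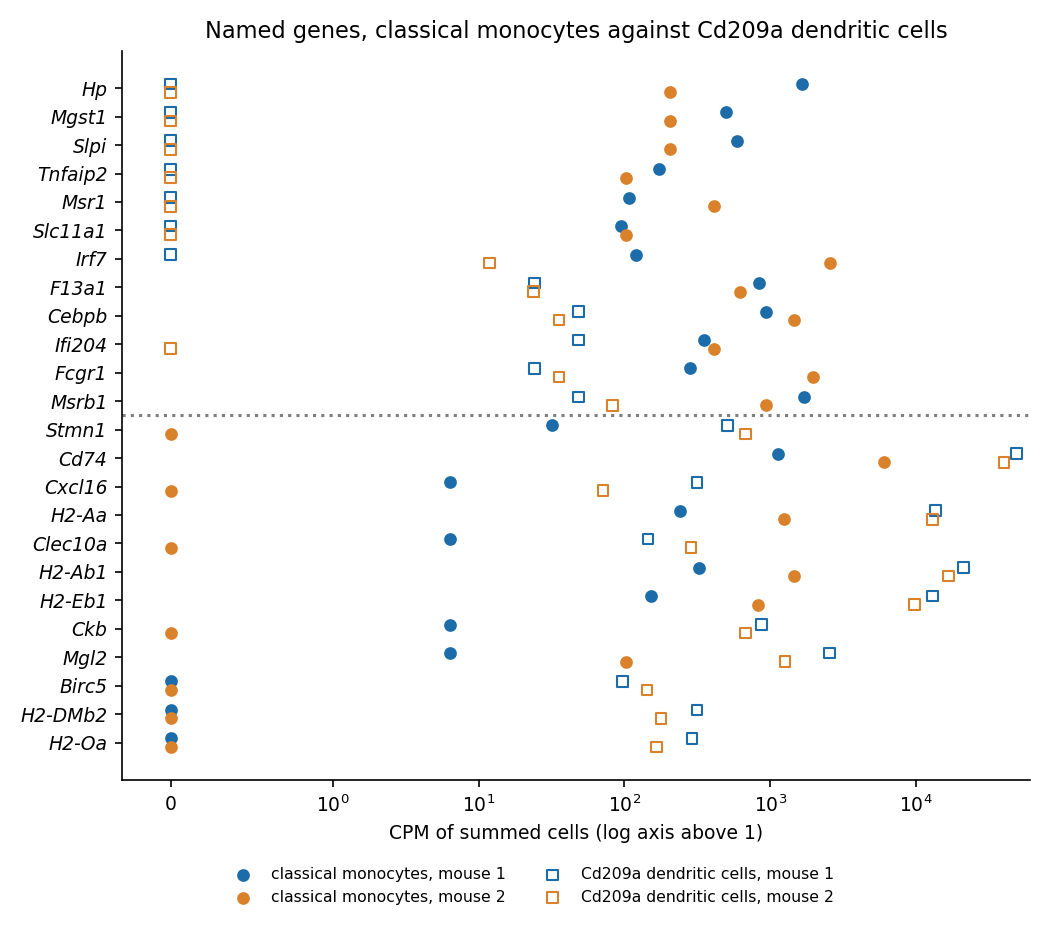
CPM of the 12 named genes with the highest (top) and the 12 with the lowest log2 fold change among listed genes called against Cd209a dendritic cells, on an axis that is logarithmic above 1. Filled circles are classical monocytes and open squares are Cd209a dendritic cells of each mouse. Hp, Mgst1 and Slpi are at 0 in the dendritic cells, and H2-Oa, H2-DMb2 and Birc5 are at 0 in the monocytes.

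Neutrophils share the blood origin of monocytes, but mouse 2 had 2 of them, so no test was made and pooled counts are given with intervals for counting error. Ifitm6 was at 1094 CPM in the monocytes and 1112 CPM in the neutrophils (ratio 0.984, 0.772 to 1.26). Hp was lower in monocytes, at 1560 against 4009 CPM (ratio 0.389, 0.331 to 0.456), as was Slpi, at 568 against 3917 CPM. Monocytes were higher in Ccr2 (1034 against 91.8 CPM), F13a1 (825 against 91.8 CPM) and S100a4 (17.8-fold). Retnlg, a resistin-like neutrophil gene, had 1 UMI in the monocytes against 3274 in the neutrophils, and Cxcr2, a neutrophil chemokine receptor, had 0 against 82. S100a8 in the monocytes of mouse 1 was 324 CPM, close to the 287 CPM in endothelial cells and 263 CPM in fibroblasts of that mouse. It was unevenly spread, with 38 of the 54 members at 0 and 15 UMIs in 1 cell, and 0 in the monocytes of mouse 2. Because the rule limits it, no more is read from it.

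At a fixed depth of 1000 UMIs per cell, which all 54 monocytes had and 81 of 5581 macrophages and 55 of 1020 endothelial cells lacked, these genes were widespread among the monocytes. Hp was seen in 77.8% of monocytes, against 0.327% of macrophages and 0.311% of endothelial cells, but also in 96.9% of 64 neutrophils. Hp is therefore not particular to monocytes among the blood-derived cells. Ms4a4c was seen in 57.4% of monocytes, against 2.76% of macrophages, 0.207% of endothelial cells, none of the neutrophils and 10.3% of the 29 dendritic cells (exact 95% interval 2.19 to 27.4%). Ccr2 was seen in 48.1% of monocytes, against 4.65% of macrophages, 0.311% of endothelial cells, 3.12% of neutrophils and 27.6% of the 29 dendritic cells. Without thinning, Ccr2 was seen in 94.4% of monocytes, against 9.03% of macrophages and 0.784% of endothelial cells, whose median depths were 2901, 2738 and 1680 UMIs. The unthinned shares of monocytes and endothelial cells were 87.0% and 0.686% for Hp and 94.4% and 0.294% for Ms4a4c.

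Some genes, picked after their values were seen and not among those tested above, had UMIs in the monocytes of mouse 1 only. They are the coagulation factor gene F10 (62 UMIs in 26 cells), the granule protease gene Prtn3 (26 UMIs in 19 cells), the neutrophil collagenase gene Mmp8 (51 UMIs in 28 cells) and the acute-phase gene Saa3 (82 UMIs in 14 cells, 28 of them in 1 cell). None of these 4 had a UMI in the cells of mouse 2, where 1 UMI is 103 CPM. Prtn3 was at 165 CPM in the monocytes of mouse 1, against 10.4 CPM (1 UMI) in its neutrophils, whereas Mmp8 was at 324 CPM, against 1708 CPM. The other azurophil granule genes Mpo and Elane, which mark earlier precursors, were at 0 in all 54 cells. Taken as 3 counts of the total, a count of 0 in 54 cells allows a share of cells with a UMI of up to 5.56%; the exact 95% interval reaches 6.60%.

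Genes of the cell cycle list differed among themselves in level. Over the whole list 53 members had a UMI, with a median sum of 5 per cell. Hmgb2, a chromatin protein, had 463 and 413 CPM in the monocytes of mice 1 and 2, against 150 and 215 CPM in the macrophages. Mki67 and Cdk1 had no UMI in the 54 cells and Top2a had 1, against 13.4 and 14.5 CPM of Mki67 in the macrophages of mice 1 and 2. The floor of 3 UMIs over the monocytes is 17.9 CPM, above the macrophage level, so a lower level was not detectable at this depth. Il1b, the fever cytokine, was present in 13 cells with 25 UMIs, at 152 and 103 CPM in mice 1 and 2, against 2916 and 5988 CPM in neutrophils, and Tnf was at 0. Cx3cr1 and Nr4a1, which rise as monocytes turn non-classical, were seen in 9 and 11 cells, and Ace in 1.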

How the data were processed

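The deposited values are raw UMI counts per gene symbol and barcode, with no normalization, which the authors made with Cell Ranger 2.2.0 and mm10, per the submitters' processing notes. The tables held 27998 genes, and 21355383 and 15174548 UMIs in mice 1 and 2; how the authors chose barcodes is not given in the sources used here. Cells were gated by UMI thresholds, with doublets called but kept (Scrublet in scanpy 1.11.5). The counts of each class in each mouse were added up, and the sums entered edgeR 4.0.16 (R 4.3.3; TMM, filterByExpr, quasi-likelihood F test, 3 classes in 2 mice, mouse as block since all classes come from the same animals, 2 residual degrees of freedom); the 14 gate genes were not tested. The fit was also run on simulated data, with changes placed only in genes well expressed in macrophages. The simulation did not imitate the gates or differences between cells, so it does not cover genes scarce in macrophages. The members, the 18 gene lists and the named-gene rule were chosen with earlier results of these data known. Named genes are the 12 listed genes with the largest log2 fold change in each direction that were called, had the same sign in each mouse and had at least 50 CPM in both mice in the higher class, plus up to 4 genes per list by CPM; others were picked after their values were seen. Some tested genes, 1 of them among the 12, are not reported here. Of 364 listed genes 358 were in the tables. Intervals are exact and cover counting error only. DESeq2 1.42.0 was an alternative.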

Additional observations from a re-analysis of the deposited data

How the results depend on the processing

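The number of classical monocytes was 45 to 54 and their share 0.347 to 0.480% under the alternatives run (doublets removed, at least 1000 UMIs, at most 5% mitochondrial UMIs, a C1q sum of at most 2, or at least 5 UMIs over Ly6c2, Chil3 and Vcan). None of the named genes with the 12 largest changes in each direction of either comparison changed direction where these or the following alternatives tested them. Some lost their call: 5 with a C1q sum of at most 2, 4 with no filter on low counts and 3 with the DESeq2 Wald test. With at least 5 UMIs over Ly6c2, Chil3 and Vcan 3 did. Many lost it without the monocytes of mouse 1 or the dendritic cells of either mouse. The genes named per list by CPM were not followed through them all. Against C1q macrophages, 123 genes were lower with the DESeq2 Wald test and 126 with no filter on low counts, in place of 191. Against Cd209a dendritic cells, 19 were lower with no filter, in place of 43. Leaving out the monocytes of either mouse gave 31 to 158 genes higher and 94 to 303 lower against macrophages, and 26 to 100 higher and 46 to 57 lower against dendritic cells. Leaving out the macrophages or the dendritic cells of either mouse, an alternative added after seeing the data, gave 20 to 38 higher and 28 to 64 lower against macrophages, and 2 to 8 higher and 5 to 14 lower against dendritic cells. In these fits the lone sample is assumed to vary like the other classes, and 1 sample fewer leaves 1 residual degree of freedom. Without the replicate block (mouse), 104 genes were higher and 203 lower against macrophages, and 46 and 50 against dendritic cells. The causes of the other changes were not tested. With 4 cells and 9694 UMIs in mouse 2, 1 UMI is 103 CPM there and lower levels were not detectable.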
